A study of Mus musculus with 8 samples.

Results

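The levels of 10 genes that regulate granulosa cell identity were compared between RNA recovered with DCP1A and input RNA of the mouse ovary. The genes were taken by name from a table of 23107 genes, without regard to their values, and comprise the transcription factor genes Foxl2, Gata4, Nr5a2, Nr0b1, Irx3, Irx5 and Runx1 and the secreted factor genes Wnt4, Wnt6 and Rspo1. All 10 were in the table and all 10 passed the filter on low counts. DCP1A is a decapping co-activator of cytoplasmic P-bodies, and the study asked which RNAs it binds in primary oocytes. RNA immunoprecipitation with an antibody against DCP1A (RIP) gave 4 libraries, and 4 further libraries were made from input RNA. All 8 came from ovarian cortex of mice at postnatal day 8, and the labels name no strain, genotype or treatment. Nothing in the labels says whether the 4 replicates of a group were separate animals or pools, so each p-value reflects only the variation among these libraries, which may be technical. Libraries with a control antibody were not analysed here, so nonspecific recovery of RNA was not measured.

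Granulosa cells surround the oocyte and arise from supporting cell precursors of the gonad. In mice, their fate is set on one side by WNT4 and R-spondin 1, which stabilise β-catenin, and on another by the forkhead factor FOXL2, and both routes hold the genes of testicular Sertoli cells in check. WNT ligands act through Frizzled receptors and LRP co-receptors, and R-spondins raise the signal by binding LGR receptors and clearing the ubiquitin ligases ZNRF3 and RNF43 from the cell surface. The study placed its question in the oocyte, while these genes are known mostly from the somatic cells around it.

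Libraries held 16325384 to 21269892 counts in RIP and 13098154 to 25757620 in input, with 14908 to 16834 and 14193 to 15763 genes detected. The most abundant gene took 11.5% to 19.5% of counts in RIP and 4.57% to 12.5% in input. The labelled tissue was checked against defining markers. The granulosa genes Amh and Inha averaged 122 and 507 counts scaled to library size (CPM) in RIP, against 120 and 493 CPM in input. The oocyte gene Zp3 averaged 370.3 CPM in RIP and 327 CPM in input, and the stromal gene Col1a1 averaged 1653 CPM in RIP and 1511 CPM in input. Of the 12 oocyte markers 0 passed, and 6 had a positive and 6 a negative log2 fold change (median -0.006). Of the 7 stromal markers 0 passed, 3 had a positive and 4 a negative log2 fold change, and 2 were lower in RIP at an unadjusted p under 0.05 (Dcn at -0.81 and Nr2f2 at -0.69). The theca gene Cyp17a1 held 88 counts over the RIP libraries (44 in RIP 3 and 44 in RIP 4) and 16 over the input libraries. The 4 theca markers tested all had a positive log2 fold change, and 0 passed. The leukocyte gene Ptprc held 41 counts in RIP and 58 in input. The 2 immune markers tested had positive values, Csf1r at 0.84 and Cd68 at 1.77, and 0 passed. Csf1r was higher in RIP at an unadjusted p under 0.05, as were 3.15% of all genes tested. In such bulk RNA, fewer cells of a type and less RNA per cell cannot be told apart.

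None of the 10 genes passed the test between RIP and input, and for every one of them the levels of both groups overlapped. In the quasi-likelihood test of edgeR, with p-values adjusted after Benjamini-Hochberg over 14667 genes, adjusted p ran from 0.738 (Runx1) to 0.995 (Foxl2), and 0 of 10 reached an unadjusted p under 0.05. Over all genes tested, 0% passed as higher in RIP and 0.0409% as lower. At an unadjusted p under 0.05 the shares were 3.15% higher and 4.28% lower, and the groups did not overlap for 2.77% of genes higher in RIP and 2.52% lower. A count of 0 among 10 genes lies near these shares and so is no result about the genes as a set. The members' median log2 fold change (RIP over input) was -0.12, with 2 positive and 8 negative values, and the median over all genes was -0.02. This tally moved when single libraries were left out, with 6 positive and 4 negative values (median 0.065) without input 2, 0 and 10 (median -0.23) without input 3, and 5 and 5 within libraries numbered 3 and 4. The direction of most single values is not settled, since Foxl2, Gata4, Irx5, Nr0b1, Nr5a2, Rspo1 and Wnt6 changed sign in at least 1 other fit. DESeq2 and limma voom also called 0 of the 10.

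For 9 of the 10 genes the 95% interval of the fold change lay between 2-fold lower and 2-fold higher in RIP, which held for 31.8% of all genes tested. The exception was Nr0b1, the gene with the fewest counts. By mean CPM, the 9 genes lay at percentiles 51.1 (Rspo1) to 99.3 (Foxl2) of all genes tested, and Nr0b1 at 20.9. The share over all genes thus covers many genes of lower level. Each interval was taken for its gene alone.

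**Figure D1:**
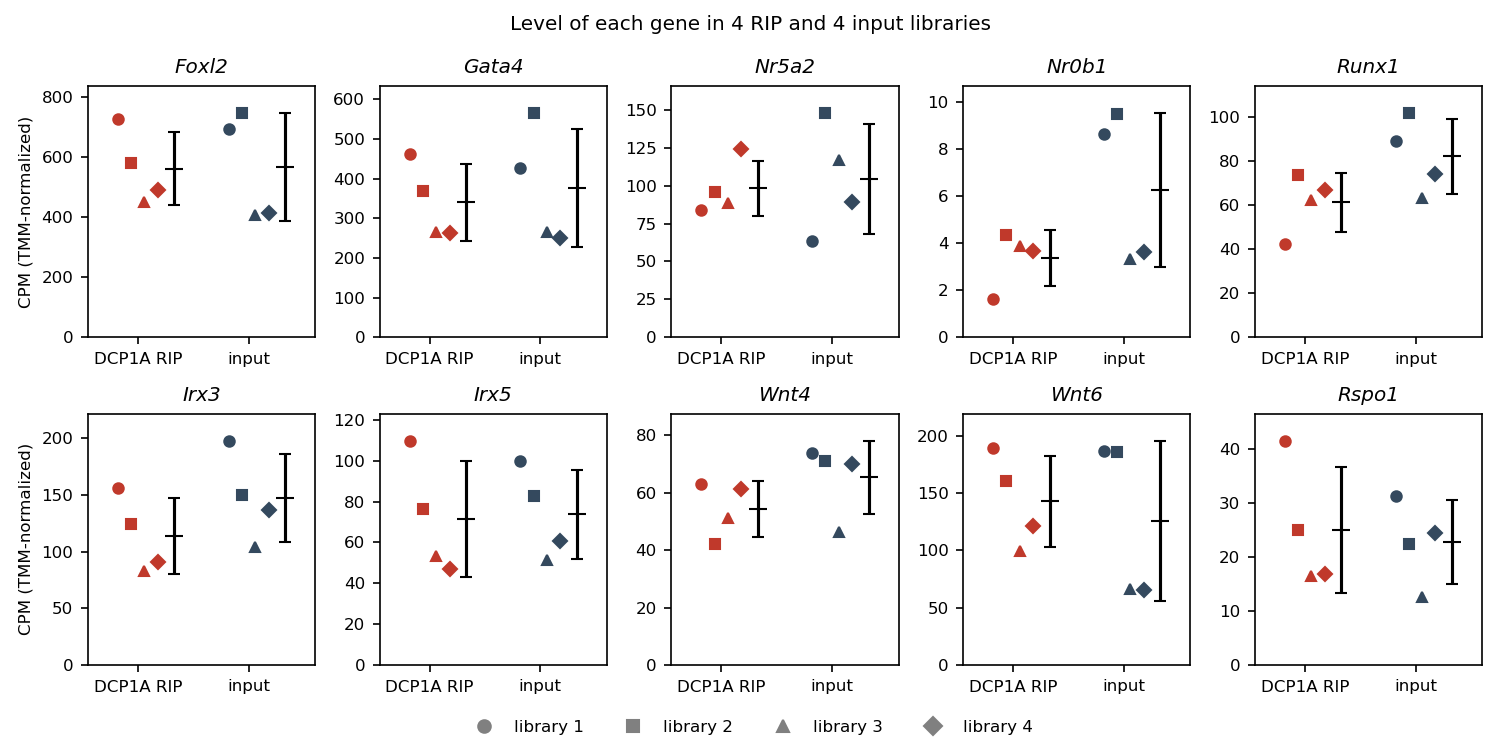
TMM-normalized level (CPM, linear axis from 0) of each gene in the 4 DCP1A RIP libraries and the 4 input libraries, with symbols for the library number and a bar with whiskers for the mean ± SD. In all 10 panels the RIP points overlap the input points, for Foxl2 between 450.2 and 726 CPM in RIP and between 407 and 746 CPM in input.

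Foxl2 encodes the forkhead transcription factor that keeps granulosa cells from taking on Sertoli features (mm10 chromosome 9, 98955607 to 98958126). It was at 726, 578, 450.2 and 491 CPM in RIP libraries 1 to 4, against 694, 746, 407 and 414 CPM in input libraries 1 to 4. Libraries 1 and 2 were high and libraries 3 and 4 low in both groups, and the ranges overlapped almost wholly. The means were 561 ± 122 CPM in RIP and 566 ± 180 CPM in input (SD, n = 4 each). The log2 fold change of Foxl2 was -0.01 ± 0.27 (SE), with a 95% interval of -0.58 to 0.56, that is from 0.670 to 1.47 times the input level. Between 8268 and 12155 counts were assigned to Foxl2 in each library. Foxl2os, the neighbouring noncoding gene of Foxl2, had a log2 fold change of 0.15 ± 0.23.

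Gata4 encodes a zinc finger factor of the early gonad and of granulosa cells (chromosome 14, 63198914 to 63271712). Its level was 463, 370, 265 and 262 CPM in RIP libraries 1 to 4, and 427, 566, 265 and 251 CPM in input libraries 1 to 4. The order of the libraries was close to that of Foxl2, with numbers 1 and 2 above 3 and 4 in both groups. Gata4 had a log2 fold change of -0.15 ± 0.30, with an interval of -0.78 to 0.48. Gata6, its paralog in granulosa cells, was at 93.6 ± 19.0 CPM in RIP and 90.1 ± 7.3 CPM in input (log2 0.05 ± 0.24), and Zfpm2, which encodes the GATA4 cofactor FOG2, had a value of -0.08 ± 0.22.

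Nr5a2 encodes the orphan nuclear receptor LRH-1, which mouse granulosa cells need for ovulation (chromosome 1, 136842562 to 136960448). It was at 84.2, 95.7, 88.8 and 124 CPM in RIP, against 63.7, 148, 117 and 89.4 CPM in input. Unlike Foxl2 and Gata4, it was lowest in library 1 of each group. The log2 fold change was -0.09 ± 0.28, with an interval of -0.68 to 0.50. Nr5a1, its paralog and the founding steroidogenic factor, was at 151 ± 44 CPM in RIP and 144 ± 91 CPM in input.

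Nr0b1 encodes DAX1, a nuclear receptor without a DNA-binding domain that represses NR5A1 (chromosome X, 86191775 to 86195947). Only 22, 91, 83 and 77 counts were assigned to it in RIP libraries 1 to 4, and 103, 112, 97 and 99 in input libraries 1 to 4. That gave 1.62, 4.33, 3.88 and 3.66 CPM in RIP, against 8.65, 9.50, 3.30 and 3.60 CPM in input. RIP 1 was the lowest library and inputs 1 and 2 the highest, while RIP 2 to 4 and inputs 3 and 4 lay close together. The log2 fold change of Nr0b1, the most negative of the 10, was -0.88 ± 0.69, and its interval ran from -2.35 to 0.58. For libraries numbered 1 and 2 alone the value was -1.60, and for numbers 3 and 4 alone it was 0.13.

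Runx1 encodes a runt-domain factor that, with FOXL2, maintains fetal pregranulosa identity in mice (chromosome 16, 92601466 to 92826074). It was at 42.4, 73.5, 62.4 and 66.6 CPM in RIP, against 88.9, 102, 63.2 and 74.1 CPM in input. RIP 1 lay below all other libraries, and inputs 1 and 2 above. The means were 61.2 ± 13.4 CPM in RIP and 82.0 ± 16.8 CPM in input (SD, n = 4 each). Runx1 had the lowest p of the 10 genes, at a log2 fold change of -0.42 ± 0.26, an interval of -0.98 to 0.14 and an edgeR adjusted p of 0.738, and 17.4% of all genes tested had a lower p. Taken by library number, the value was -0.72 for numbers 1 and 2 and -0.09 for numbers 3 and 4. An annotated noncoding gene, Gm30281, lies within Runx1, and Gm29539 and Gm12930 overlap Wnt6 and Rspo1. Since it is not given whether counting used strand, reads shared with these genes cannot be told apart.

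Irx3 and Irx5 encode Iroquois homeodomain factors that are needed together for follicle integrity in mice (chromosome 8, 91798511 to 91801654 and 92357796 to 92361456). Irx3 was at 156, 124, 83.0 and 91.1 CPM in RIP, against 198, 149.6, 104 and 137 CPM in input. Irx5 was at 109.8, 76.4, 53.2 and 46.8 CPM in RIP, against 100.1, 82.7, 51.4 and 60.9 CPM in input. For both genes library 1 was the highest and libraries 3 and 4 were the lowest of each group, and the groups overlapped. The log2 fold changes were -0.37 ± 0.27 for Irx3 (interval -0.95 to 0.21) and -0.04 ± 0.31 for Irx5 (interval -0.70 to 0.62). Irx3, Runx1 and Wnt4 kept a negative value in all 20 other fits, and none of those values passed. By limma voom with sample weights Irx3 was at -0.55 (unadjusted p = 0.0386, limma adjusted p = 0.565). Of the other Iroquois genes, Irx2 averaged 1.80 CPM in RIP and 1.38 CPM in input, and Irx1, Irx4 and Irx6 lay below the filter.

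**Figure D2:**
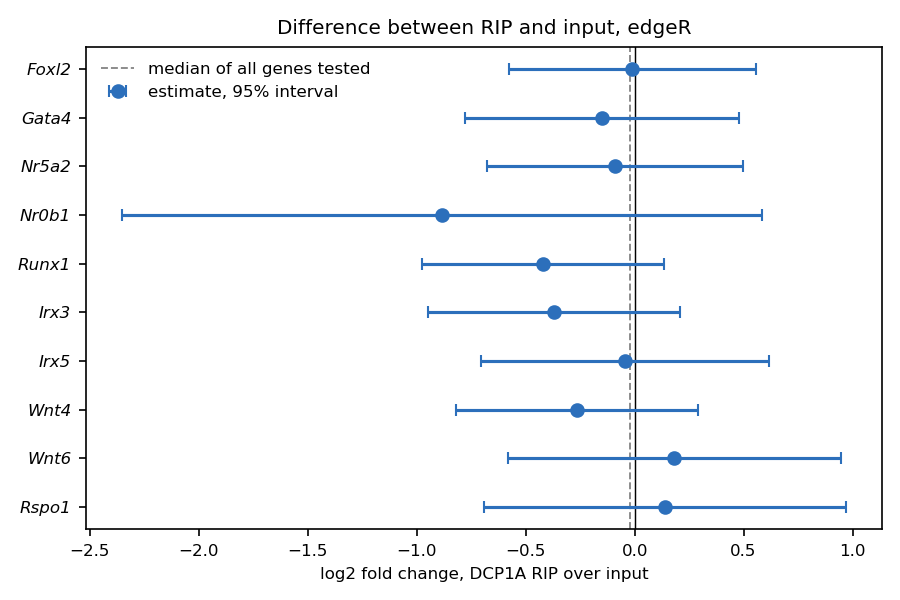
Log2 fold change of DCP1A RIP over input for each gene (points) with its 95% interval (whiskers) from edgeR, with the median of all genes tested as a dashed line at -0.02. All 10 intervals include 0, and all but that of Nr0b1 lie between -1 and 1.

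Wnt4 encodes the WNT ligand needed for ovarian development in mice (chromosome 4, 137277635 to 137299501). It was at 63.2, 42.2, 51.1 and 61.2 CPM in RIP, against 73.9, 71.1, 46.2 and 70.2 CPM in input. The input libraries other than input 3 lay above all 4 RIP libraries, and input 3 lay among them. The means were 54.4 ± 9.7 CPM in RIP and 65.4 ± 12.8 CPM in input (SD, n = 4 each), and the log2 fold change of Wnt4 was -0.26 ± 0.26 with an interval of -0.82 to 0.29. Without input 3 the value was -0.39 and did not pass (edgeR adjusted p = 0.957).

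Wnt6 encodes another WNT ligand (chromosome 1, 74754342 to 74785322). Its level was 189, 160.2, 99.6 and 121 CPM in RIP libraries 1 to 4, and 187, 186, 65.8 and 64.9 CPM in input libraries 1 to 4. Inputs 1 and 2 lay far above inputs 3 and 4, the highest input being 2.88 times the lowest, and the RIP libraries lay between these pairs or, for RIP 1, just above the upper pair. The log2 fold change of Wnt6 was 0.18 ± 0.36, with an interval of -0.58 to 0.95. With numbers 1 and 2 alone it was -0.10, and with numbers 3 and 4 alone it was 0.75 (unadjusted p = 0.0153, edgeR adjusted p = 0.5).

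Rspo1 encodes R-spondin 1, which acts with WNT4 in ovarian fate (chromosome 4, 124986401 to 125009102). It was at 41.5, 24.9, 16.5 and 16.9 CPM in RIP, against 31.3, 22.4, 12.5 and 24.4 CPM in input. RIP 1 was the highest library and input 3 the lowest. The log2 fold change of Rspo1 was 0.14 ± 0.39, with an interval of -0.69 to 0.97, and it was -0.22 without RIP 1. RIP 1 also had the highest summed level of the 5 surface epithelium markers (110.4 CPM, against 34.7 to 47.7 CPM in the other RIP libraries and 33.1 to 68.0 CPM in input). That sum was made up mostly of Krt19 (65.1 CPM) and Upk3b (33.9 CPM), with Upk1b at 0 counts and Msln at 77 counts in RIP 1. The part of surface epithelium cells in the Rspo1 level was not tested.

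Several of these genes differed by library number in the same way in RIP and in input. For Foxl2, Wnt6, Gata4, Irx3 and Irx5, both libraries numbered 1 and 2 lay above both numbered 3 and 4 in RIP and again in input. That was 5 of 10 genes, against 12.3% of all genes tested, and the reverse order in both groups was seen for 0 of 10 genes and 12.1% of all genes. Within RIP alone 6 of 10 genes had this order (23.7% of all genes), and within input alone 8 of 10 (23.3%). The grouping by number was known from earlier results of these data, it has no stated meaning in the labels, and the difference was not tested. The 16 granulosa products summed to 2454, 2388, 1703 and 1874 CPM in RIP libraries 1 to 4, and 2252, 3112, 1455 and 1549.9 CPM in input libraries 1 to 4, again higher in numbers 1 and 2. The 12 oocyte markers did not follow it, at 1905, 2419, 2406 and 2329 CPM in RIP and 2069.7, 2766, 2167 and 2215 CPM in input. The 7 stromal markers summed to 5389.9, 3974, 3062 and 3356 CPM in RIP and 4477, 4588, 3138 and 3043 CPM in input. These sums were again higher in numbers 1 and 2 and were made up mostly of Col1a1 and Col1a2. The median of those markers, as log2 CPM centred on each gene's mean, had this order in RIP, at -0.13, -0.055, -0.24 and -0.16, but not in input, at 0.29, -0.30, 0.62 and -0.18. The 5 surface epithelium markers summed to 110.4, 47.7, 43.1 and 34.7 CPM in RIP and 68.0, 55.8, 33.1 and 37.9 CPM in input, also in this order. Their median, taken in the same way, had it in input (0.29, 0.47, -0.49 and -0.40) but not in RIP (1.07, -0.028, -0.066 and 0.033). Input libraries 1 and 2 also held the fewest counts of all 8. The part of cell composition or depth in these levels was not tested.

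**Figure D3:**
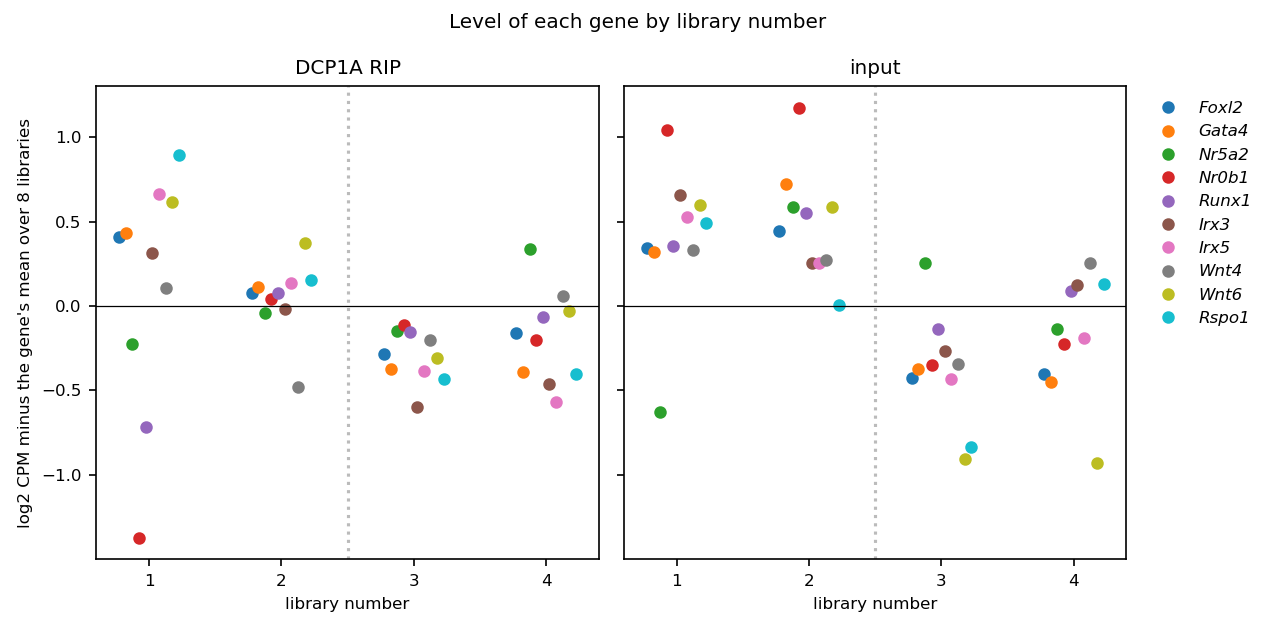
Level of each gene as log2 CPM minus the gene's own mean over the 8 libraries, by library number, for DCP1A RIP and input, with a dotted line between numbers 2 and 3. Most points of libraries 1 and 2 lie above 0 and most of libraries 3 and 4 below it in both panels, with Nr5a2 in library 1 of each group and Runx1 and Nr0b1 in RIP 1 among the exceptions.

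Among themselves the genes differed in how closely their profiles ran. Likeness was measured as the root mean square difference of log2 CPM (prior count of 2), each gene centred on its own mean over the 8 libraries. Of 45 pairs, Foxl2 and Gata4 were the closest at 0.135, followed by Irx3 and Irx5 at 0.206, and Rspo1 and Nr0b1 were the farthest at 0.937, with a median of 0.452. Over all genes tested, the profiles most like that of Foxl2 were those of Sorbs3 (0.0720), Aldh2 (0.0833) and Pola2 (0.0844), where the median difference was 0.686. For Wnt4 they included Fem1b (0.123) and Ube2e1 (0.130), where the median was 0.637. All profiles share the same 8 libraries and their scaling.

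The wider WNT pathway was not called either. Of 20 other WNT and R-spondin ligand genes, 6 passed the filter and 0 passed the test, with a median log2 fold change of 0.02. Wnt9a was at 13.4, 9.27, 9.55 and 10.9 CPM in RIP, against 10.3, 1.61, 4.15 and 4.04 CPM in input, with a log2 fold change of 1.10 ± 0.57. Input 1 lay among the RIP libraries and the other inputs below them. Wnt2b had a value of 0.27 ± 0.42, and Rspo2, a paralog of Rspo1, one of -0.28 ± 0.50.

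All 22 genes for WNT receptors, ligand secretion and receptor turnover were tested, and 0 passed. Their median was -0.04, and 1 of 22 was higher in RIP at an unadjusted p under 0.05, against 3.15% of all genes tested. This was the Frizzled receptor gene Fzd1, at 69.9, 38.5, 28.7 and 43.0 CPM in RIP and 34.4, 21.8, 20.2 and 30.0 CPM in input (log2 0.76 ± 0.33, edgeR adjusted p = 0.645). The RIP range began within the input range. Ror2, a receptor for noncanonical WNT ligands, had a value of 0.78 ± 0.38. Fzd10 held 234 counts in RIP and 44 in input, with 0 counts in input 1. Its RIP counts came mostly from RIP 1, with 10.6, 1.52, 0.843 and 1.90 CPM in RIP libraries 1 to 4. RIP 3 lay below inputs 2 and 4, so the groups overlapped for Fzd10. The genes through which R-spondin 1 acts were chosen here for that role after their values were seen. On the log2 scale Lgr5 was at -0.05 ± 0.56 (interval -1.25 to 1.14) and Znrf3 at -0.03 ± 0.26. Lgr4 was at -0.23 ± 0.23, Lgr6 at -0.11 ± 1.19 and Rnf43 at 0.35 ± 0.32.

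Inside the cell, 18 of 18 genes of β-catenin signalling were tested and 0 passed, with a median log2 fold change of 0.14. The β-catenin kinase gene Gsk3b was at 89.9, 112, 102 and 169.6 CPM in RIP, against 209.8, 165, 173 and 177 CPM in input, and only RIP 4 reached the input range. Gsk3b had a log2 fold change of -0.61 ± 0.25, an unadjusted p of 0.0250 and an edgeR adjusted p of 0.622, and was the only 1 of the 18 lower in RIP at an unadjusted p under 0.05, against 4.28% of all genes tested. The scaffold gene Dvl2 (0.58 ± 0.32) and the β-catenin co-activator gene Pygo1 (0.52 ± 0.38) had the next lowest p. Of 12 feedback targets, 5 of which are also in the lists above, 11 were tested and 0 passed, with a median of 0.03. Nkd1 and Nkd2, which encode Dishevelled antagonists, had values of 0.27 ± 0.23 and -0.55 ± 0.42, and the cyclin gene Ccnd1 one of -0.61 ± 0.50. Of 12 antagonist genes 7 were tested and 0 passed, with a median of 0.19. Sfrp1, a secreted WNT-binding protein, was at 64.0 ± 13.5 CPM in RIP and 86.8 ± 29.9 CPM in input, and the DKK receptor gene Kremen1 at 105 ± 35 CPM in RIP and 78.4 ± 16.1 CPM in input. Kremen2 held 32 counts in RIP and 74 in input.

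Of 15 other transcription factor genes of supporting cells 13 were tested, 0 passed the test, and the median log2 fold change was 0.07. The groups did not overlap for 1 of the 13, which was higher in RIP, and 2.77% of all genes tested were of this kind, so the count is no result about the list. The Polycomb gene Cbx2, whose loss in mice causes male-to-female sex reversal, was at 87.2, 71.6, 83.9 and 68.7 CPM in RIP, against 46.9, 47.1, 39.4 and 50.3 CPM in input. Every RIP library lay above every input library. The means of Cbx2 were 77.9 ± 9.1 CPM in RIP and 45.9 ± 4.6 CPM in input, its log2 fold change was 0.76 ± 0.24 with an interval of 0.25 to 1.27, and its edgeR adjusted p was 0.610. The oestrogen receptor gene Esr2 (0.31 ± 0.24) and the forkhead gene Foxo1 (0.29 ± 0.23), both granulosa factors, followed.

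Products of granulosa cells were likewise not called, with 0 of 16 tested genes passing and a median of -0.05. At an unadjusted p under 0.05, 1 of the 16 was higher in RIP (Ihh) and 1 lower (Kitl), against 3.15% and 4.28% of all genes tested. Ihh, the hedgehog ligand sent to theca precursors, was at 20.8, 14.0, 10.5 and 5.98 CPM in RIP, against 4.70, 3.48, 3.51 and 8.01 CPM in input, and RIP 4 and input 4 made the ranges overlap. Its log2 fold change was 1.38 ± 0.52 (edgeR adjusted p = 0.622). Kitl, the KIT ligand that granulosa cells present to the oocyte, was at 37.2, 67.4, 64.5 and 61.0 CPM in RIP, against 93.4, 91.4, 108 and 64.2 CPM in input. Input 4 lay within the RIP range and the other inputs above it, and the log2 fold change was -0.63 ± 0.27 (edgeR adjusted p = 0.631). Cyp19a1, the aromatase gene, held 140 counts in RIP and 18 in input, with 0 counts in input 2.

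**Figure D4:**
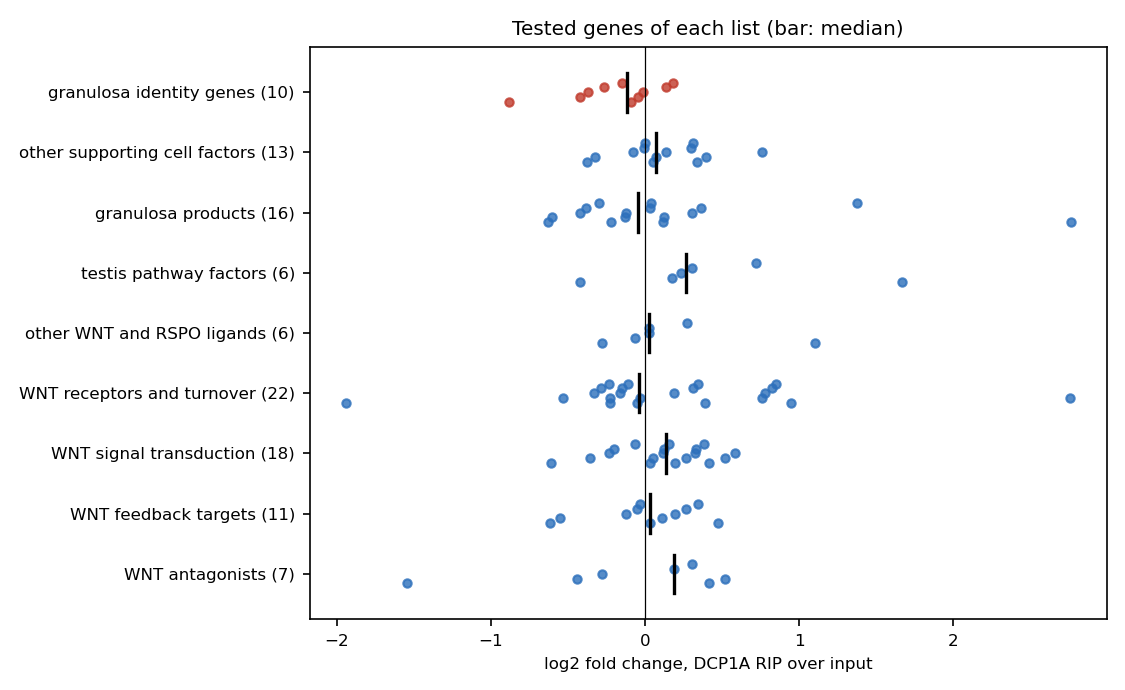
Log2 fold change of DCP1A RIP over input for every tested gene (points) of the granulosa identity genes and of 8 related lists (number tested in brackets), with a vertical bar at each list's median. The medians lie between -0.12 for the granulosa identity genes and 0.27 for the testis pathway factors, and no gene shown passed the test.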

How the data were processed

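A Magna RIP kit was used to recover RNA bound to DCP1A, and a SMARTer Stranded Pico kit to make libraries, per the labels' protocols. The genome build was mm10 per the submitters' processing notes. Which aligner, counter and annotation were used is not given in the sources used here. The table deposited by the authors holds estimated counts (expected counts) per gene, not scaled between libraries, of which at most 1.85% per library were not whole at a tolerance of 1e-09. They were rounded. Use of molecular identifiers is not stated.

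RIP was compared with input over all genes with edgeR 4.0.16 in R 4.3.3 (TMM factors, filterByExpr with a minimum count of 10 and a total of 15, robust quasi-likelihood fit, Benjamini-Hochberg adjustment, threshold 0.05). The standard error is the absolute log2 fold change over the root of the F statistic, and the 95% interval uses the fit's degrees of freedom. The test was checked on simulated data, with changes set in genes above the median level. It recovered 18 of 50 changes of 2-fold and 48 of 50 changes of 4-fold, with 8 false calls. A gene not called can thus still differ by 2-fold. CPM values are TMM-normalized. Alternatives were other scalings, DESeq2 1.42.0, limma 3.58.1 voom, other filters, blocks, and left-out libraries. Coordinates are from RefSeq GRCm38.p6, the mm10 assembly. Transcript lengths were not used, so levels were not compared between genes, apart from the CPM percentiles given beside the intervals.

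The related lists and their genes were chosen with earlier results of these data known, while the 10 members were taken by name. Named were the 10 members, the 3 genes of lowest p and any passing gene of each related list, and the 3 profiles most like Foxl2 and Wnt4, of which 1 is not reported here. Gata6, Zfpm2, Nr5a1, Foxl2os, Irx2, Lgr4, Lgr5, Lgr6, Znrf3, Rnf43, Sox9 and Dmrt1 were added for their roles after their values were seen.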

Additional observations from a re-analysis of the deposited data

Results flagged for a closer look

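Among 20 groups of 4 libraries checked (10 genes in RIP and in input), 1 held a library far from the rest, where chance gives about 1. Wnt4 was at 46.2 CPM in input 3, while the other input libraries lay between 70.2 and 73.9 CPM, so that 0.867 of the group's whole range lay between input 3 and its nearest neighbour, more than the 95% critical value of Dixon for 4 libraries. The RIP libraries of Wnt4 lay between 42.2 and 63.2 CPM.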

How the results depend on the processing

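In all 20 alternative fits 0 of the 10 genes passed, with a lowest adjusted p of 0.378. The members' median log2 fold change lay between -0.30 and 0.065, against the reported -0.12, and was positive only without input 2. Each value lay within 0.32 of the reported one, where 0.32 is the spread of their median level between single libraries of a group. That limit is wide for a difference of group means, so lying within it says little. Of 200 single-gene values, 174 kept their sign and 26 did not, none of them passing. Foxl2 was at 0.022 with upper quartile scaling, 0.022 with the replicate block and 0.026 with numbers 1 and 2 against 3 and 4 as a block. Within libraries 3 and 4 the values with the other sign were 0.19 for Foxl2, 0.028 for Gata4, 0.13 for Nr0b1, 0.042 for Nr5a2 and -0.15 for Rspo1, and within libraries 1 and 2 they were 0.021 for Irx5 and -0.10 for Wnt6. By limma voom with sample weights Nr5a2 was at 0.035 and Rspo1 at -0.14. Leaving out 1 library at a time gave -0.16 to 0.15 for Foxl2, -0.33 to 0.11 for Gata4, -0.32 to 0.14 for Irx5, -0.27 to 0.12 for Nr5a2, -0.22 to 0.33 for Rspo1 and -0.032 to 0.44 for Wnt6. The causes were not tested.

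Over all genes, 6 were called, all lower in RIP. The count was 55 with the replicate block (13 higher and 42 lower), 55 with the number groups as a block, 83 by DESeq2 (28 higher and 55 lower), 20 by limma voom, 27 within libraries 1 and 2, and 4 to 17 without 1 library, the most without RIP 1 and 15 without input 3. Deviations from the group means correlated between same-numbered libraries at 0.162, 0.0915, 0.178 and 0.118 for numbers 1 to 4. Each of RIP 1, 2 and 3 correlated best with the input of its own number, and RIP 4 correlated best with input 3 (0.269). Seen from the input side, only input 1 correlated best with its own number. Input 2 correlated best with RIP 1 (0.152), input 3 with RIP 4 and input 4 with RIP 3 (0.140). Same-numbered libraries thus did not always correlate best, and the labels do not say what a number marks. The libraries were therefore not treated as pairs in the main test, which does not show that they are unpaired. Of the 10 genes Nr0b1 had the fewest counts, at 22 to 112 per library.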

Other observations

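Factors of the testis pathway are restrained in mice by FOXL2 and WNT4 signalling. Their levels summed to 52.3 to 62.9 CPM in RIP and 28.2 to 60.4 CPM in input. The lowest RIP sum, in RIP 1, included 14.7 CPM of Sry, which held 0 counts in RIP 3, RIP 4 and every input. Without Sry the RIP range would thus begin lower. Of the 9 genes of the testis pathway 6 were tested, 0 passed, and the median log2 fold change was 0.27. Fgf9, a growth factor of the testis pathway, was at 3.76, 5.71, 4.49 and 4.61 CPM in RIP, against 1.34, 0, 2.69 and 1.75 CPM in input, so that every RIP library lay above every input library, as for 2.77% of all genes tested. Its fold change was 1.67 ± 1.04 on the log2 scale (quasi-likelihood test of edgeR, adjusted p = 0.740). Sox8 was at 0.72 ± 0.52 and Dhh at -0.42 ± 0.46. The Sertoli factor gene Sox9 passed the filter, with 450 counts over the RIP libraries and 337 over the input libraries (log2 0.18 ± 0.65). Dmrt1, another Sertoli factor gene, held 2 counts over the RIP libraries and 14 over the input libraries.

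Several genes of these lists below the filter had nearly all their counts in 1 library. Sry, chosen after its values were seen, held 199 counts in RIP 1, 10 in RIP 2 and 0 in the other 6 libraries. Dkk4, a WNT antagonist gene chosen in the same way, held 0 counts in every RIP library and 91 counts in input 3, with 0 in the other inputs. Such counts from 1 library give no measure of a group.

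Paralogs and partners of the 10 genes were mostly scarce. Runx3 held 154 counts in RIP and 51 in input, with 0 counts in inputs 1 and 2, and Gata5 held 93 and 34. Cbfb, which encodes the partner of the RUNX proteins, was at 52.7 ± 12.2 CPM in RIP and 60.4 ± 21.7 CPM in input (log2 -0.20 ± 0.30).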
